A study of Homo sapiens with 288 samples.

Results

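TGFBR1, TGFBR2, TGFBR3, ENG, ACVRL1, TGFB1 and TGFB2 code for receptors, co-receptors and ligands of transforming growth factor beta (TGF-beta). They were chosen by symbol, with earlier results of these data known. All 7 of the 7 listed genes were found among the 17492 protein-coding genes of the tables. TGFBR1 was the most abundant and was as high in EC as in TB cells, at a mean of 495 and 492 counts per 1000000 counts of the cell (CPM). TGFBR2 was 28-fold higher in EC cells, TGFBR3 was 3.18-fold higher, and ENG and ACVRL1 were found mainly in EC cells. TGFB2 was found mainly in TB cells, and TGFB1 was low in both.

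Endothelial (EC) and trophoblast-like (TB) cells were differentiated from H1, an established human embryonic stem cell line. Each cell was captured on the Fluidigm C1 system, which makes amplified full-length cDNA from 1 cell per chamber, and cDNA kept from 45 EC and 51 TB cells was adjusted to equal input before library preparation in the experiments EQ-Vary, EQ and EQ-75%. EQ pooled equal volumes, EQ-Vary pooled variable volumes, and EQ-75% repeated EQ at lower depth, so all 96 cell numbers are shared by the 3 experiments. Cells had to reach a log10 total count of 5.4 with at most 31% of counts in the 50 most abundant genes, which left 38 EC and 48 TB cells in EQ, with 471593 to 3966801 counts per EC cell and 365570 to 3479240 per TB cell.

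For EC, H1 cells received BMP4 at 5 ng/ml and Activin A at 25 ng/ml in E8 medium for 2 days, and VEGF and WNT for 3 days after that. For TB, they were kept in E7, which is E8 without FGF2, with BMP4 at 50 ng/ml and SB431542, a small molecule that blocks the kinase of TGFBR1 and of the related receptors ACVR1B and ACVR1C. Cell type and medium therefore cannot be told apart. The labels name no separate cultures, so each cell type in each experiment was 1 sample. No test between EC and TB was made, SDs describe the spread between cells, and binomial and counting intervals cover counting error only, since reads of amplified cDNA are not independent molecules.

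TGF-beta ligands bind the type II receptor TGFBR2, which then recruits and phosphorylates the type I receptor TGFBR1 (ALK5), and the activated complex signals through SMAD2 and SMAD3. In endothelium a further type I receptor, ACVRL1 (ALK1), signals through SMAD1 and SMAD5 and also takes ligands of the BMP9 and BMP10 kind. The co-receptors betaglycan (TGFBR3), which presents TGFB2 to TGFBR2, and endoglin (ENG), which is best known from vascular endothelium, adjust ligand binding.

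The labels were checked against marker genes. Of 12 endothelial markers, 11 averaged at least 1 CPM over both types, and all 11 were at least 2-fold higher in EC. KDR, a VEGF receptor, had a mean of 1600 CPM in EC and 4.27 in TB, PECAM1 had 1317 and 15.0, and FLT1 had 729 and 8.44. Of 10 trophoblast markers, 9 were at least 2-fold higher in TB, led by KRT18 at 1926 CPM against 327, KRT8 at 1259 against 137 and VTCN1 at 1142 against 3.64. GATA3 was 1.97-fold higher in TB, and the hormone subunit CGA reached only 2.93 CPM there. Of 8 mesenchymal markers, 6 were at least 2-fold higher in TB, with LUM at 3041 CPM against 10.2, COL3A1 at 735 against 2.41 and COL1A1 at 280 against 21.8. Of 4 pluripotency markers above the limit, 2 were higher in EC and 1 in TB, and LIN28A was at 279 CPM in EC and 287 in TB, NANOG at 83.2 and 34, and DPPA4 at 33.6 and 95.5. The blood list had PTPRC at 18.9 and 12.9 CPM, ITGA2B at 0.0261 and 0.158, and SPI1 at 0.

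A gene was counted as higher in a cell type when its mean CPM there was at least 2-fold that in the other type. Of the 12351 genes that averaged at least 1 CPM over both types, 19.2% were higher in EC and 26.2% were higher in TB by this rule, and their median log2 ratio of EC to TB was -0.06. Of the 7 members, 4 were higher in EC (ACVRL1, TGFBR2, ENG and TGFBR3), 1 was higher in TB (TGFB2), and TGFBR1 and TGFB1 were neither. The median log2 ratio of the 7 was 1.67. Since the 7 were chosen with earlier results of these data known, these counts beside those of all genes are a description only.

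**Figure D1:**
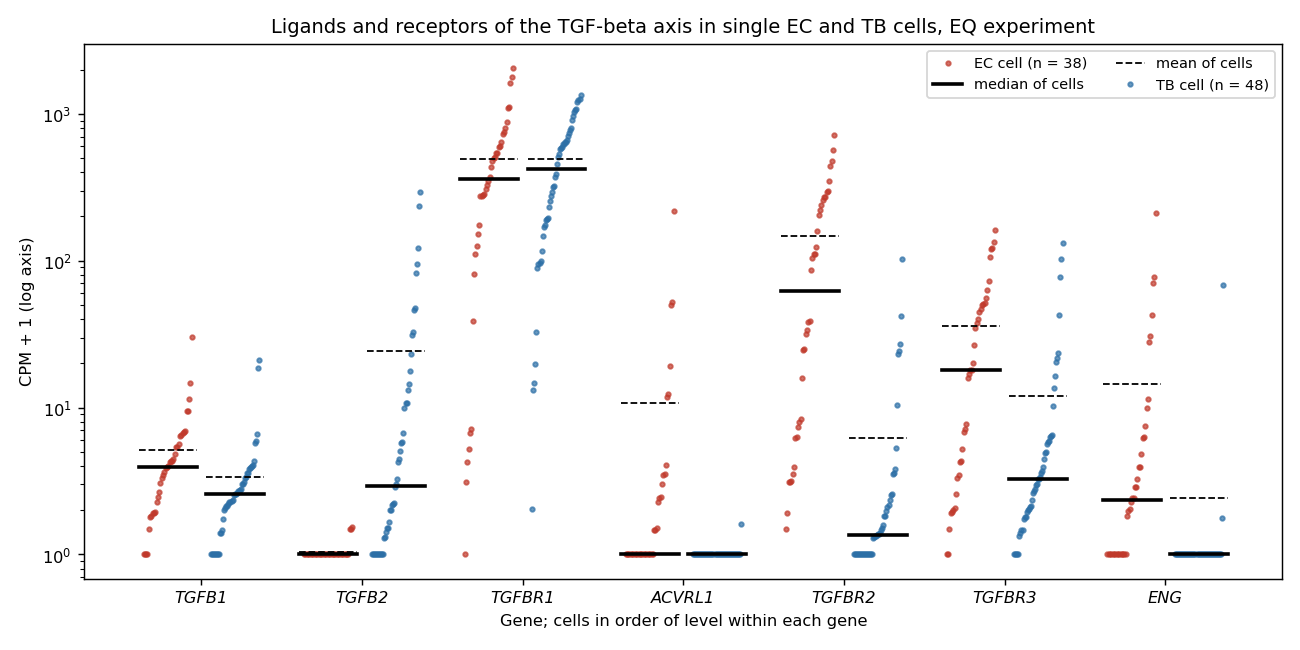
CPM + 1 on a log axis for each gene in the 38 EC (red) and 48 TB (blue) cells of EQ, ordered by level within a gene, with the median as a thick line and the mean as a dashed line. TGFBR1 overlaps almost fully between the types, and 18 EC cells lie above every TB cell for TGFBR2. A level of 10 CPM is reached by 7 EC cells for ENG, 6 EC cells for ACVRL1 and 13 TB cells for TGFB2.

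The ligands come first. TGFB1, the ubiquitous ligand, ranged from 0 through a median of 2.97 to 29.1 CPM in EC cells. In TB cells it ranged from 0 through 1.57 to 20.2 CPM. The ranges overlapped almost fully, with 8 TB cells above the EC median. The means were 4.13 ± 5.16 CPM (SD, n = 38) in EC and 2.36 ± 3.73 (SD, n = 48) in TB, a ratio of 1.75. Leaving out TB 7, the highest TB cell, brought the ratio to 2.09, past the 2-fold limit. In EQ-Vary it was 2.06 and in EQ-75% it was 1.63. TGFB1 is thus a low-level gene in both types, and its side of the limit depends on single cells.

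TGFB2, a ligand that binds TGFBR2 poorly without betaglycan, was the only member higher in TB. In TB cells it ranged from 0 through a median of 1.94 to 294 CPM, and 36 of 48 cells had a count. A few cells held most of it, since TB 41 had 294 CPM, TB 6 had 235 and TB 35 had 122. In EC cells the highest value was 0.537 CPM, and the 38 cells together held 3 counts, against 2313 in TB. The ratio of summed counts, TB over EC, was 625 with a 95% counting interval of 214 to 3035, and 31 TB cells lay above every EC cell. EC cells had no TGFB2 count in EQ-75%. With 3 counts over all EC cells in place of 0, the TB mean there was 471-fold higher. The 95% counting interval of the ratio of summed counts, TB over EC, began at 374. EC 3, which held the highest of the EC values, moved the ratio of means from 578 to 868 when left out.

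Of the type I receptors, TGFBR1 ranged in EC cells from 0 through a median of 360 to 2040 CPM. In TB cells it ranged from 1.04 through 422 to 1334 CPM. The distributions overlapped, with 18 of 38 EC cells above the TB median and 26 of 48 TB cells above the EC median. The means were 495 ± 496 CPM (SD, n = 38) and 492 ± 385 (SD, n = 48), a ratio of 1.01 that ranged from 0.921 to 1.04 when each cell was left out. The ratio was 0.982 in EQ-Vary and 1.21 in EQ-75%. In EC, 30 cells exceeded 100 CPM and 6 were below 10 CPM, and in TB, 39 exceeded 100 CPM and 1 was below 10 CPM.

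ACVRL1, the endothelial type I receptor, was sparse. In EC cells its median was 0, its highest value was 217 CPM in EC 34, and 16 of 38 cells had a count. EC 34 alone contributed 58.1% of the EC mean of 9.81 CPM, and EC 28 and EC 31 followed with 51.4 and 48.8 CPM. In TB cells there was a single count, in TB 25. Of the EC cells, 13 lay above every TB cell. The ratio of summed counts was 969, with a 95% counting interval of 173 to 38318. In EQ-Vary and EQ-75% no TB cell had a count. With 3 counts over all TB cells in place of 0, the EC mean was 319-fold and 385-fold higher. The 95% counting interval of the ratio of summed counts began at 256 and 342. Without EC 34 the EC mean was 4.22 CPM and the ratio of means fell from 785 to 337.

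TGFBR2, the type II receptor, had a count in every one of the 38 EC cells. Its levels in EC ranged from 0.498 through a median of 61.6 to 715 CPM. In TB it ranged from 0 through 0.365 to 101 CPM. All 38 EC cells lay above the TB median, 1 TB cell lay above the EC median, and 18 EC cells lay above every TB cell. The means were 146 ± 180 CPM (SD, n = 38) and 5.20 ± 16.3 (SD, n = 48), a ratio of 28 that was 31.2 in EQ-Vary and 26.8 in EQ-75%. Of the TB cells, 5 reached 10 CPM, and TB 25 alone gave 40.6% of the TB mean. Without TB 25 the ratio was 46.2. TGFBR2 had a count in 29 of 48 TB cells and CDH5, the endothelial cadherin, in 31, while the TB mean was 3.57% of the EC mean for TGFBR2 and 0.185% for CDH5.

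TGFBR3, betaglycan, ranged in EC from 0 through a median of 17.1 to 160 CPM. In TB it ranged from 0 through 2.26 to 131 CPM. The groups overlapped over nearly the whole range, with 2 EC cells above every TB cell, but 30 of 38 EC cells were above the TB median. The means were 34.9 ± 42.5 CPM (SD, n = 38) and 11 ± 25.8 (SD, n = 48), a ratio of 3.18 that stayed between 2.87 and 4.14 when each cell was left out and was 3.16 in EQ-Vary and 3.48 in EQ-75%.

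ENG, endoglin, had an EC median of 1.34 CPM, and 7 of 38 EC cells reached 10 CPM. Its highest EC value was 209 CPM in EC 10, followed by 76.7 in EC 7 and 69.9 in EC 8, and 15 of 38 EC cells had no count. In TB, 46 of 48 cells had no count, TB 47 had 1 count, and TB 46 had 172 counts, or 66.8 CPM. The means were 13.5 ± 37.2 CPM (SD, n = 38) and 1.41 ± 9.65 (SD, n = 48), a ratio of 9.59. Without TB 46 the TB mean was 0.0164 CPM and the ratio of means was 826, and without EC 10 the ratio was 5.84.

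TB 46 carried ENG in each experiment, at 66.8 CPM in EQ, 61.7 in EQ-75% and 60.7 in EQ-Vary. Its 12 endothelial markers summed to 27.6 CPM, near the TB median of 28 and far below the EC range of 280 to 8662 CPM, and its 10 trophoblast markers summed to 5324 CPM, within the TB range of 2734 to 18556. The 8 mesenchymal markers summed to 6048 CPM in this cell, within the TB range of 651 to 9952.

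The level of each type's markers in the other type is given beside the low values. The TB mean of the 12 endothelial markers was between 0% (CLDN5) and 50.4% (ROBO4, at 1.19 CPM in EC) of the EC mean, with a median of 0.274%. The TB mean of TGFBR2 was 3.57% of its EC mean, that of ENG was 10.4%, and that of ACVRL1 was 0.127%. The EC mean of the 10 trophoblast markers was between 0.133% (KRT7) and 50.8% (GATA3) of the TB mean, and that of TGFB2 was 0.173%. The part of reads from other cells in the low values was not tested.

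On the GRCh38 build of GENCODE v44, TGFBR1 is at chr9:99104038-99154192 on the plus strand and ENG at chr9:127815013-127854658 on the minus strand of the same chromosome. ACVRL1 is at chr12:51906908-51923361 (plus), TGFBR2 at chr3:30606601-30694142 (plus), TGFBR3 at chr1:91680343-91906335 (minus), TGFB1 at chr19:41301587-41353922 (minus) and TGFB2 at chr1:218345336-218444619 (plus).

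The 250 bases before the start of ENG and TGFBR2, which were higher in EC, and of TGFB2, which was higher in TB, are shown so that the start regions of oppositely placed genes can be read side by side. They are from RefSeq on GRCh38.p14, on the gene's own strand and ending next to the GENCODE start, and the capitals mark GGAA or its reverse complement TTCC, the core that ETS factors bind. They lie at chr9:127854659-127854908, chr3:30606351-30606600 and chr1:218345086-218345335.
ENG: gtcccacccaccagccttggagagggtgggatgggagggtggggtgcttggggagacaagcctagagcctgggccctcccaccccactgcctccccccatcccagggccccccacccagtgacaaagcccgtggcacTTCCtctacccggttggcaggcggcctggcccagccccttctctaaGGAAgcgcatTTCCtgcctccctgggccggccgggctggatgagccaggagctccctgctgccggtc
TGFBR2: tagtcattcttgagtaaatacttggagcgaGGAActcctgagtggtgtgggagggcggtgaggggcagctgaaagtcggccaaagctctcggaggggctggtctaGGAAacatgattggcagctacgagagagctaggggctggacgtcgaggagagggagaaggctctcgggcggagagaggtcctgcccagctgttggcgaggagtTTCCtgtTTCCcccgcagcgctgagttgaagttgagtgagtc
TGFB2: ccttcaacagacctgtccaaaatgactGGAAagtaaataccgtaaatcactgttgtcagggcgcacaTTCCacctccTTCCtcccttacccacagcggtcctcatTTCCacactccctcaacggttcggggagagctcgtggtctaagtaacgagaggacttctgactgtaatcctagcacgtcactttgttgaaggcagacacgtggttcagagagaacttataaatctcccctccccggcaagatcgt

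The ENG window held 3 matches to GGAA on either strand, at 113, 67 and 57 bases before the start, the TGFBR2 window held 4 and the TGFB2 window held 4. Of 35116 RefSeq promoter windows of this length, 92.7% held at least 1 match and the median number was 3. The longer CGGAA, found in 30.3% of windows and overlapping GGAA, was in none of the 3. The TFAP2 motif GCCNNNGGC, found in 19.8% of windows, had 1 match for ENG and 0 for TGFBR2 and TGFB2. The GC content was 69.6% for ENG, 58.4% for TGFBR2 and 50.4% for TGFB2, against a median of 58.0%. A match is a description of the letters and not a binding site. RefSeq promoter windows were matched for 6 of the 7 genes, with ACVRL1 the exception.

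To order the 7 genes, levels were divided by the length of the MANE Select transcript and given as mean CPM per kilobase. In EC the order was TGFBR1 at 76.3 ± 76.4 (SD, n = 38), TGFBR2 at 32.2 ± 39.6, TGFBR3 at 5.51 ± 6.71, ENG at 4.59 ± 12.6, ACVRL1 at 2.35 ± 8.71, TGFB1 at 1.49 ± 1.86 and TGFB2 at 0.00684 ± 0.0237. No neighbours in this order differed by more than the larger SD between cells. In TB the order was TGFBR1 at 75.8 ± 59.3 (SD, n = 48), TGFB2 at 3.95 ± 9.75, TGFBR3 at 1.73 ± 4.06, TGFBR2 at 1.15 ± 3.61, TGFB1 at 0.847 ± 1.34, ENG at 0.478 ± 3.27 and ACVRL1 at 0.00299 ± 0.0207. There the step from TGFBR1 to TGFB2 was the single one larger than both SDs.

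The order was also counted within cells. Per kilobase, TGFBR1 exceeded TGFBR2 in 26 of 38 EC cells and in 47 of 48 TB cells, so the type II receptor was the higher of the pair in 12 EC cells and 1 TB cell. TGFBR3 exceeded ENG in 26 of 38 EC cells. TGFB1 exceeded TGFB2 in 34 EC cells and was exceeded in 0, whereas in TB cells TGFB1 was higher in 25 and TGFB2 in 21.

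**Figure D2:**
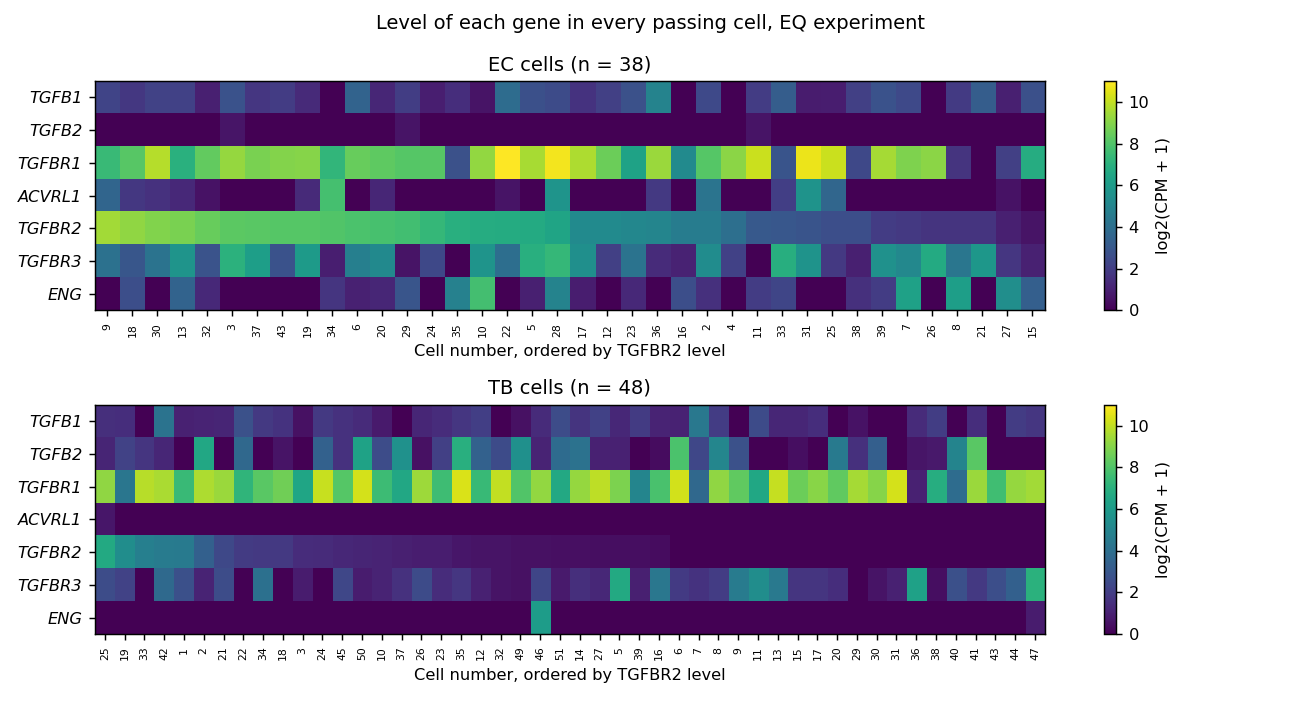
log2(CPM + 1) of each gene (rows) in every passing EC cell (top, n = 38) and TB cell (bottom, n = 48) of EQ, with cells ordered by their TGFBR2 level. TGFBR1 exceeds 100 CPM in 30 EC and 39 TB cells, and 5 of the 6 EC cells under 10 CPM of TGFBR1 are among the 12 under 10 CPM of TGFBR2.

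Detection, a rounded count of at least 1, did not follow the order of the means, since TGFB1 was found in more EC cells than ENG and ACVRL1 and in more TB cells than TGFB2 and TGFBR2. TGFBR1 was detected in 37 of 38 EC cells (97.4%, exact 95% interval 86.2 to 99.9%) and in 48 of 48 TB cells. TGFBR2 was detected in 38 of 38 EC cells and 29 of 48 TB cells (60.4%, 45.3 to 74.2%), and TGFBR3 in 36 and 43. ENG was detected in 23 of 38 EC cells (60.5%, 43.4 to 76.0%) and 2 of 48 TB cells (4.17%, 0.509 to 14.3%).

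ACVRL1 was detected in 16 of 38 EC cells (42.1%, 26.3 to 59.2%) and 1 of 48 TB cells. Of the ligands, TGFB1 was detected in 34 EC and 39 TB cells, and TGFB2 in 3 of 38 EC cells (7.89%, 1.66 to 21.4%) and 36 of 48 TB cells (75.0%, 60.4 to 86.4%). In EQ-Vary and EQ-75% the TB cells with TGFBR2 were 20 of 46 and 23 of 50.

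Some of these shares rest on few counts. With each cell thinned to 500000 counts, which left 37 EC and 46 TB cells, the expected share for TGFBR2 was 93.5% in EC and 33.5% in TB, for ENG 50.4% and 3.01%, and for ACVRL1 31% and 0.652%. TGFB1 came to 68.3% and 52.7%, TGFB2 to 2.06% and 55.2%, TGFBR3 to 82.8% and 63.6%, and TGFBR1 to 98.4% and 98.8%. Asking for 5 counts in place of 1 left TGFBR2 in 31 EC and 8 TB cells, TGFB1 in 24 and 13, and ENG in 14 and 1.

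**Figure D3:**
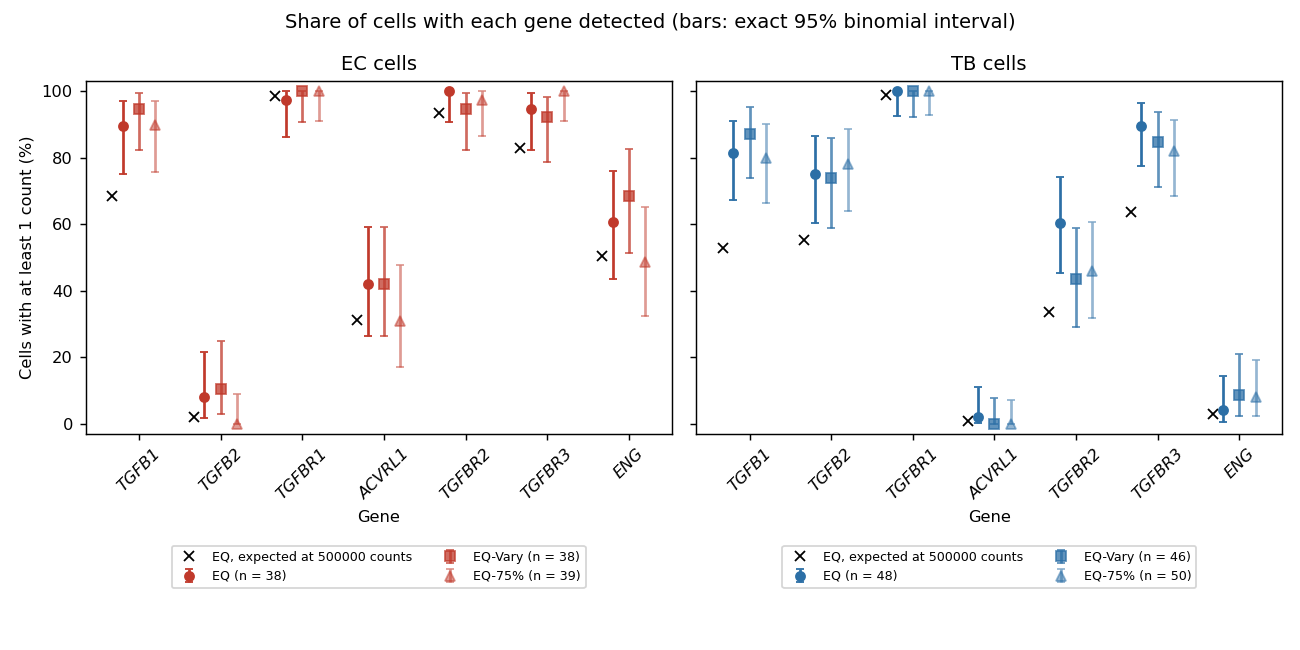
Percent of EC cells (left) and TB cells (right) with at least 1 count of each gene in the 3 experiments, with exact 95% binomial intervals, and crosses for EQ thinned to 500000 counts. In EQ, ENG is detected in 23 of 38 EC and 2 of 48 TB cells and TGFB2 in 3 and 36, and the intervals cover counting over cells of 1 sample each and are no test between the types.

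The receptors that act together were counted in the same cells. TGFBR1 and TGFBR2 were both detected in 37 of 38 EC cells (97.4%, exact 95% interval 86.2 to 99.9%) and in 29 of 48 TB cells (60.4%, 45.3 to 74.2%). With at least 5 counts of each, the pair was found in 31 EC and 8 TB cells. The type I pair with the type II receptor, TGFBR1, TGFBR2 and ACVRL1, was found in 16 EC cells and 1 TB cell.

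ENG and ACVRL1, the endothelial co-receptor and type I receptor, were found together in 9 of 38 EC cells (23.7%, 11.4 to 40.2%), while 14 had ENG alone, 7 had ACVRL1 alone and 8 had neither. No TB cell of 48 had both, which allows a share of up to 6.25% by the limit of 3 cells, or 7.40% by the exact 95% interval. TGFB2 together with TGFBR1 and TGFBR2 was found in 24 TB cells and 3 EC cells, and TGFB1 together with both receptors in 33 EC and 26 TB cells. Of the 7 genes, an EC cell had a median of 5 detected and a TB cell a median of 4, and no cell had all 7.

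The spread between cells was set against that of genes with a like mean, with genes ranked by mean CPM in 10 groups of equal size and the median coefficient of variation (CV, SD over mean) taken in the group of each gene. In EC the CV of TGFBR1 was 1.001 against 0.853 in its group, that of TGFBR2 was 1.23 against 1.24, that of TGFBR3 was 1.22 against 1.91, and that of ENG was 2.75 against 2.42. ACVRL1 had a CV of 3.71 against 2.42, and TGFB1 had 1.25 against 3.49. In TB, TGFBR1 had 0.782 against 0.698, TGFBR2 had 3.14 against 2.60, TGFBR3 had 2.35 against 2.14, TGFB1 had 1.59 against 3.24 and TGFB2 had 2.47 against 1.81.

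TGFB1 was thus spread more evenly over cells than most genes of its level. In EC it was detected in 89.5% of cells against a median of 26.3% in its group, and in TB in 81.2% against 33.3%. Its counts were also mostly not whole, since 10.5% of its nonzero values in EQ were whole numbers, as were 3.57% for TGFBR3 and 24.2% for TGFBR1. For the other 4 genes the share was 62.2% to 76.5%. A value that is not whole means that RSEM shared reads between genes. The part of this sharing in the even spread of TGFB1, and in the levels of TGFBR1 and TGFBR3, was not tested.

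The 3 experiments used the same stored cDNA, so the same cell was measured again, without its capture and first amplification. Between EQ and EQ-75%, the rank correlation over cells (Spearman's rho, given as a description) in EC was 0.980 for TGFBR1, 0.973 for TGFBR2, 0.959 for TGFBR3, 0.777 for ACVRL1, 0.776 for ENG and 0.608 for TGFB1 (n = 37 cells). In TB it was 0.989 for TGFBR1, 0.858 for TGFB2, 0.794 for TGFBR3, 0.621 for TGFBR2, 0.347 for TGFB1 and 0.346 for ENG, which few TB cells held (n = 47 cells). The order of cells was thus kept best for TGFBR1 in both types, and least for TGFB1 in EC and for TGFB1 and ENG in TB.

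The SD of the within-cell difference, on the log2(CPM + 1) scale, was 0.489 for TGFBR1 in EC against 2.83 between cells, and 0.585 against 2.75 for TGFBR2. For ENG in EC it was 0.931 against 2.14, and for TGFB2 in TB it was 0.741 against 2.37. For TGFB1 it was 0.884 against 1.13 in EC and 0.969 against 0.986 in TB. The SD of a difference holds the error of both measurements, so the error of 1 measurement is smaller than these values. Detection changed between EQ and EQ-75% in 9 of 37 EC cells for ENG, 7 of 37 for ACVRL1 and 14 of 47 TB cells for TGFB1. The ENG level was at most 3.87 CPM in EQ in the 6 EC cells that lost it and at most 7.04 CPM in EQ-75% in the 3 that gained it.

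TGFBR1 itself shifted between the experiments. It was higher in EQ-75% than in EQ in 33 of 37 EC cells and in 42 of 47 TB cells. The mean difference, on the log2(CPM + 1) scale, was 0.34 ± 0.49 (SD, n = 37) in EC and 0.31 ± 0.28 (SD, n = 47) in TB, while the central 90% of the 12351 genes lay between -0.40 and 0.12 in EC and between -0.31 and 0.14 in TB. Between EQ-Vary and EQ it differed by 0.08 ± 0.72 (SD, n = 38) and 0.04 ± 0.19 (SD, n = 46). The other 6 genes had mean differences between -0.30 and 0.02 from EQ to EQ-75%, all within the central 90% of genes.

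**Figure D4:**
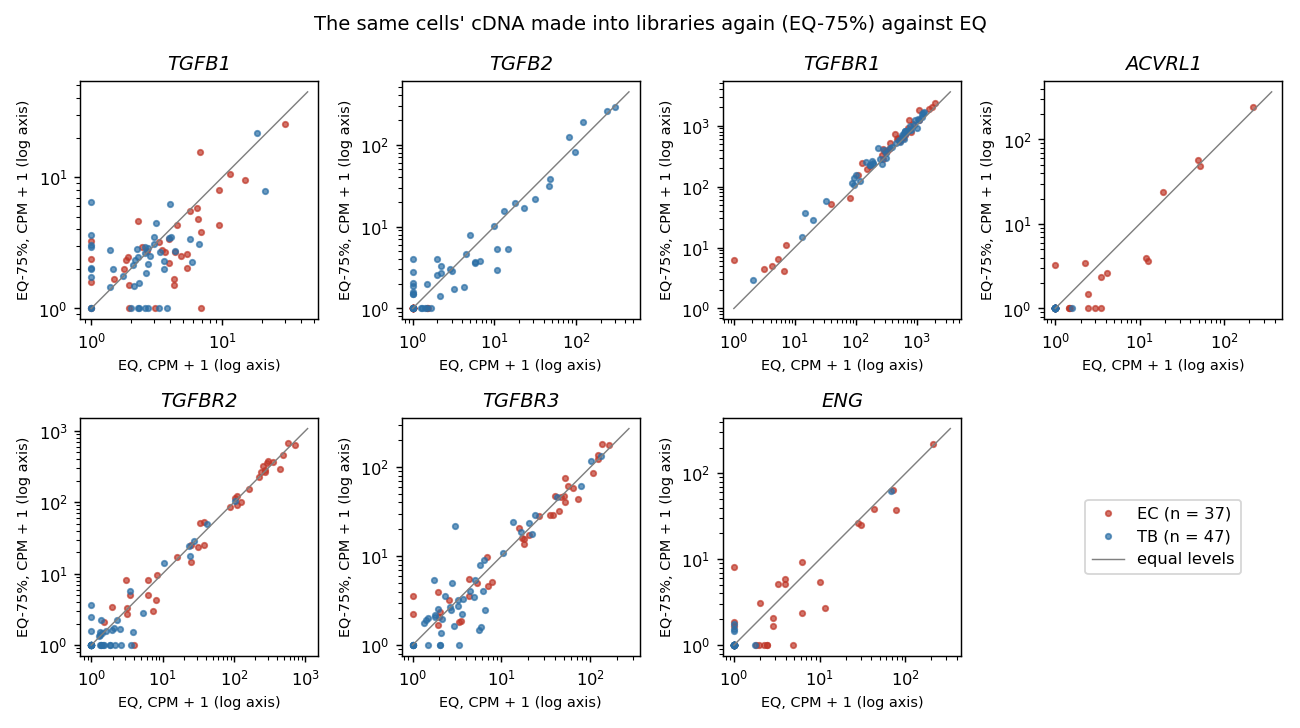
CPM + 1 of each gene in EQ (horizontal) and EQ-75% (vertical) on log axes, 1 point per cell (37 EC in red, 47 TB in blue), with the line of equal levels. TGFBR1 lies mostly above the line, in 33 EC and 42 TB cells.

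Among the 7 genes themselves, no pair moved closely together. Over 38 EC cells the 21 rank correlations ranged from -0.39 (TGFBR1 with ENG) to 0.27 (TGFBR1 with TGFBR3), and over 48 TB cells from -0.37 (TGFBR3 with TGFB2) to 0.26 (TGFBR2 with ACVRL1). The first of these was -0.29 in EQ-75%, the second 0.29 and the third -0.22. The last rests on the single ACVRL1 count of TB 25 and could not be formed in EQ-75%, where no TB cell had an ACVRL1 count. ENG and ACVRL1, both found mainly in EC, had a rho of -0.08 over EC cells. With the summed endothelial markers over EC cells, rho was 0.37 for TGFBR1 and between 0.02 and 0.22 for TGFBR2, TGFBR3, ENG and TGFB1. The points share library depth, and correlations this weak in sparse counts are no finding.

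The genes most alike in pattern were ranked by rho among the 8234 to 8616 genes with a mean of at least 10 CPM in the cell type. For EC cells these were NBN (0.52), PIGH (0.51) and USP34 (0.51) for TGFBR1, DNASE1L1 (0.61), TIGD7 (0.58) and PPP1R8 (0.58) for TGFBR2, and CRNKL1 (0.61), SEC62 (0.59) and NOB1 (0.57) for TGFBR3. For ENG they were GLRX5 (0.52), ANK2 (0.51) and MBIP (0.51), and for TGFB1 they were NSF (0.65), PYGO2 (0.61) and SLC35C2 (0.58). In EQ-75% these 15 values were between 0.13 (NSF) and 0.57 (SEC62).

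For TB cells they were C6orf48 (0.51), TMEM123 (0.50) and DHX16 (0.49) for TGFBR1, TCEAL4 (0.53), NCKIPSD (0.52) and ALG2 (0.52) for TGFBR2, and WDR77 (0.49) and TMEM214 (0.46) for TGFBR3. For TGFB1 they were UQCRHL (0.59), C9orf64 (0.59) and BICD1 (0.56), and for TGFB2 they were FLRT3 (0.51), ATXN7L3B (0.48) and PSMB7 (0.48). In EQ-75% these were between 0.19 (BICD1) and 0.51 (FLRT3). They are among the highest of at least 8234 values, and the 99th percentile of all genes ranked was 0.31 to 0.42.

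The other genes of the pathway were grouped by role, and their values are means over 38 EC and 48 TB cells. The share of all genes called, beside which each list's counts stand, was 19.2% higher in EC and 26.2% higher in TB. The SD between cells was 0.403 to 6.16 times the mean in EC and 0.485 to 5.08 times in TB. Of 16 further ligands and genes of ligand activation, 12 were above 1 CPM on average, 4 were higher in EC (33.3%) and 5 in TB (41.7%), with a median log2 ratio of 0.02 against -0.06 for all genes. INHBB, NODAL, GDF2 and BMP10 had no count in any passing cell of EQ, and GDF2 codes for BMP9, the high-affinity ligand of ACVRL1. Higher in TB were ITGB6, an integrin subunit that activates latent TGF-beta, at 268 CPM against 0.643, the activin subunit INHBA at 180 against 1.99, and LTBP3, which binds latent TGF-beta, at 2.74 with 1 EC cell carrying it. THBS1 and TGFB3 were the other two. Without EC 10 the EC mean of INHBA was 0.617 CPM, and without TB 31 the TB mean of LTBP3 was 1.22.

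Higher in EC were LTBP2 at 29.1 CPM against 0.0789, with 708 CPM in EC 29 and an EC mean of 10.8 without that cell, and ITGB8, LTBP4 and FURIN. ITGB8 had 90.0 CPM against 24.2 and LTBP4 had 2.91 against 1.13. The calls of ITGB8, LTBP4 and FURIN were each lost without 1 EC cell, with ratios of 1.94 (EC 4), 1.68 (EC 37) and 1.70 (EC 29), and the TB mean of LTBP4 was 0.532 CPM without TB 50. By the 2-fold ratio alone, the TB side of this list kept its 5 calls when any cell was left out. The filter of 1 CPM was not applied again. Without TB 31, LTBP3 fell below that filter, with means of 0.00955 CPM in EC and 1.22 in TB.

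Of 8 other type I and type II receptors of the family, 7 were above 1 CPM, 2 were higher in EC (28.6%) and 1 in TB (14.3%), and the median log2 ratio was 0.31. ACVR2A, an activin type II receptor, had 428 CPM in TB and 159 in EC. BMPR1B had 7.78 CPM in EC and 3.02 in TB, and ACVR1 had 47.6 and 20.2. Each of these EC calls was lost without 1 EC cell, since the ratio was 0.555 without EC 25 for BMPR1B and 1.82 without EC 43 for ACVR1, whose TB mean was 8.51 CPM without TB 32. BMPR2, the type II receptor that pairs with ACVRL1, was among the 4 that were not past the limit, at 128 CPM in EC and 74.2 in TB.

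Of the 5 SMAD genes measured, 1 was higher in EC (20%) and 0 in TB, with a median log2 ratio of -0.49, and SMAD4 was not analysed here. SMAD1 had 62.2 CPM in EC and 19.6 in TB, and its ratio was 1.78 without EC 17. SMAD2, the main transducer from TGFBR1, was abundant in both types, at 669 CPM in EC and 940 in TB. SMAD3 had 14.1 CPM in EC and 22.1 in TB, and the EC mean was 2.46 CPM without EC 23.

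Of 14 inhibitors and feedback genes, 12 were above 1 CPM, 6 were higher in EC (50.0%) and 2 in TB (16.7%), with a median log2 ratio of 1.09. SMAD6, which restrains BMP and ACVRL1 signals, had 6.89 CPM in EC and 0.0628 in TB, and the TB mean was 0.0275 without TB 19. TGIF2, a SMAD co-repressor, had 253 against 76.1 CPM, and FKBP1A, which holds type I receptors inactive, had 900.3 against 347. FST, the activin-binding follistatin, had 260 CPM in TB and 16.05 in EC, of which EC 4 held 226 CPM, and the EC mean was 10.4 without it. SMURF1 had 20.4 CPM in TB and 7.72 in EC, or 4.89 without EC 3. The calls of SKIL, PMEPA1 and SMURF1 did not hold in this direction without a single cell, EC 30, EC 15 and TB 1, and for PMEPA1 the log2 ratio went from 1.32 to -1.24.

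Known targets of the SMAD2 and SMAD3 branch were split by gene. Of the 8 measured, 2 were higher in EC (25.0%) and 5 in TB (62.5%), with a median log2 ratio of -2.63, and SNAI2 was not analysed here. The TB medium held SB431542, which blocks the kinase of TGFBR1, and EC cells had received Activin A for 2 days. The part of SMAD2 and SMAD3 signalling in the levels of these genes was not tested. The connective tissue growth factor CTGF had 248 CPM in TB and 0.816 in EC, COL1A1 had 280 and 21.8, and TGFBI had 390 and 33, while TAGLN and MMP2 were the other two. COL4A1, a basement membrane collagen, had 326 CPM in EC and 5.10 in TB, and FN1 had 1418 and 353. Single cells moved 3 of these means by over 1.5 times, COL1A1 to 10.4 CPM in EC without EC 25, TGFBI to 16.2 in EC without EC 7, and COL4A1 to 2.72 in TB without TB 16, with no call lost.

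COL1A1 and TAGLN also stand in the mesenchymal marker list, whose summed level had a median of 44 CPM in EC cells (range 8.03 to 782) and of 3754 in TB cells (651 to 9952). Its part in the TB values of the target list was not tested.

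The last list held targets of SMAD1 and SMAD5, the branch through which ACVRL1 signals. Of the 4 measured, 2 were higher in EC (50.0%) and 0 in TB, with a median log2 ratio of 1.30, and ID2 was not analysed here. BMP4 was in both media, and the part of ACVRL1 in the levels of these genes was not tested. HEY2 had 59.4 CPM in EC and 1.24 in TB, where TB 46, the cell with ENG, held 28 CPM and the mean was 0.672 without it. ID3 had 170 and 47.2 CPM. ID1, the most used readout of this branch, had 6.97 CPM in EC and 6.48 in TB. Over the 6 lists, 17 of 48 genes were higher in EC (35.4%, against 19.2% of all genes) and 13 in TB (27.1%, against 26.2%). The lists were chosen with earlier results of these data known, so these shares are a description only. By the 2-fold ratio alone, 9 of the 30 calls, 8 higher in EC and 1 in TB, were lost when 1 cell was left out. LTBP3, which fell below the 1 CPM filter without TB 31, is not among the 9. A further 7 genes passed the limit when 1 cell was left out.

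**Figure D5:**
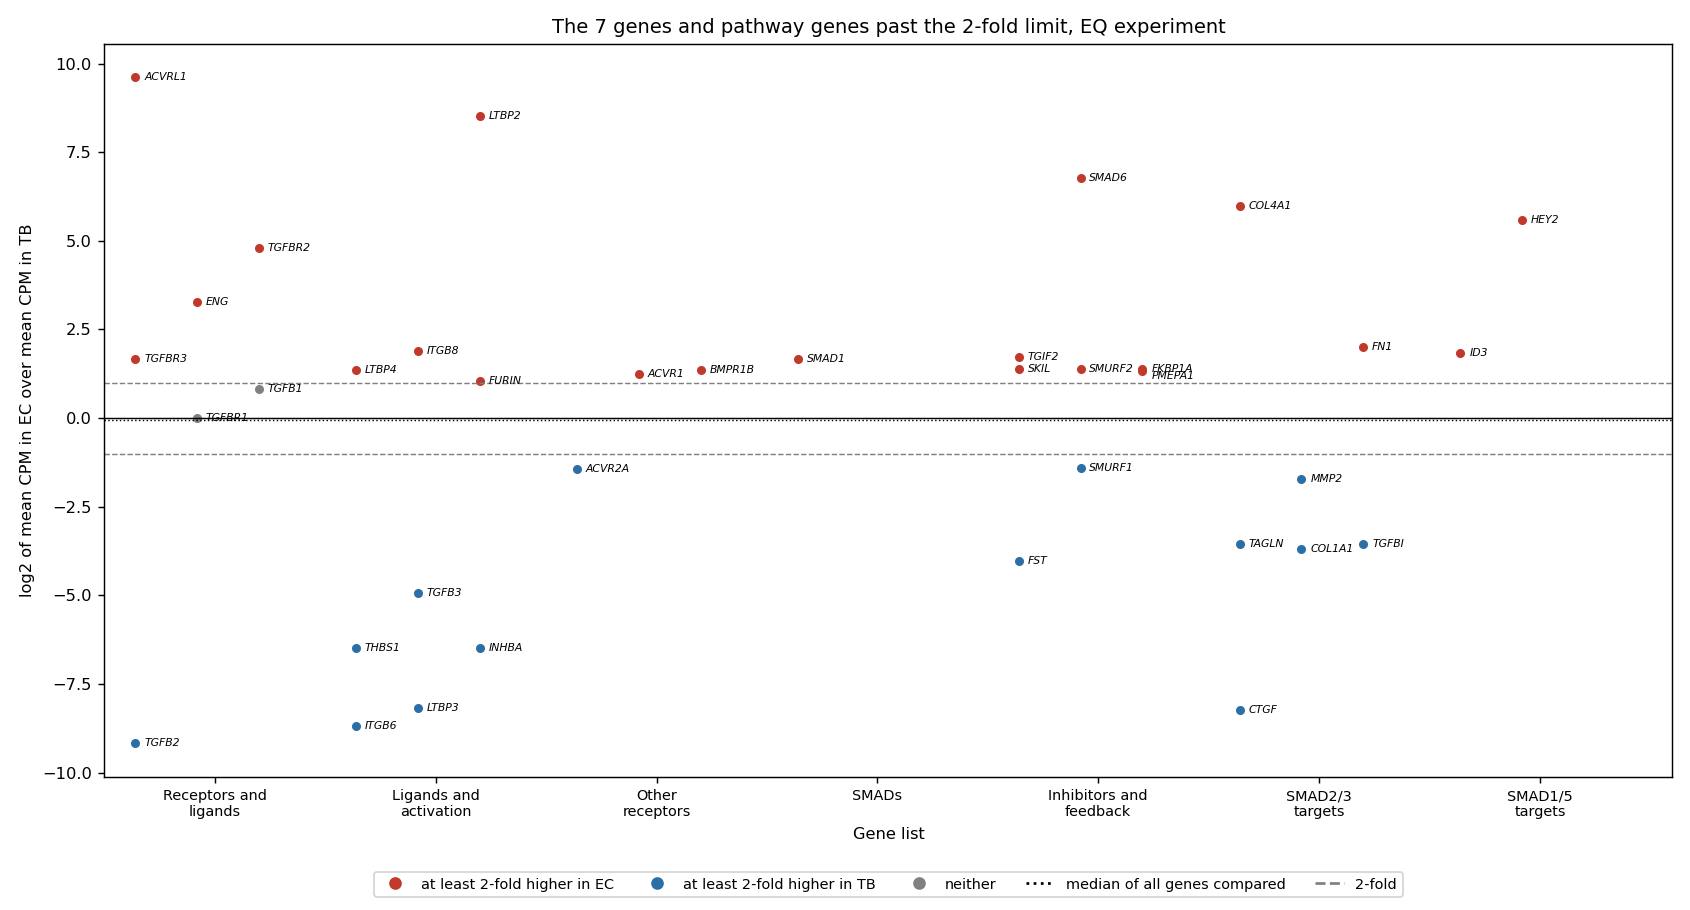
log2 ratio of mean CPM in EC to TB in EQ for the 7 receptors and ligands and for the pathway genes past the 2-fold limit, by list, with dashed lines at 2-fold and a dotted line at the median of all genes compared (-0.06). Of the 48 pathway genes compared outside the 7 receptors and ligands, 17 are higher in EC (35.4%, against 19.2% of all genes). In TB, 13 are higher (27.1%, against 26.2%), and pathway genes not past the limit are not drawn.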

How the data were processed

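The 288 libraries, each of a single cell, have an expected count for each of 17492 coding genes, which the authors estimated with RSEM 1.2.31 from reads trimmed to 51 bp and mapped with Bowtie 1.2.3 (up to 2 mismatches) to GRCh38 Ensembl coding genes, and deposited without normalization. The submitters' notes also name CASAVA 1.8.2. Groups came from the sample labels. Counts were rounded, scaled to 1000000 per cell (CPM) and compared as ratios of group means, with exact binomial or Poisson-based 95% intervals. A gene had to average at least 1 CPM over EC and TB, and a call was a 2-fold ratio. Each type was 1 sample, so no p-value was computed and no doublet caller was run. Same-numbered cells were paired between experiments because the study states that they share cDNA, and the lowest correlation of their deviations from the mean of the type was 0.872. Differences between experiments used log2(CPM + 1).

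The members and lists were chosen with earlier results of these data known. All members were named, with at most 3 genes per list and direction (largest fold), the 3 most abundant markers of each list, and the 3 genes of highest rho for a member detected in at least 50% of cells. Genes outside this rule were named after their values were seen, and some genes that the rule or the lists select are not reported here. Lengths and positions were from GENCODE v44. The calls, thinning, intervals and correlations were tested on simulated data. The work was done in Python 3.11.15 with scipy 1.17.1, pandas 2.3.3, matplotlib 3.10.9 and numpy 2.4.6. The counting error of 1 count equals the count, so levels under 1 CPM rest on few reads. Alternatives covered the cells, experiments, scaling, low-value filter, detection limit and pairing.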

Additional observations from a re-analysis of the deposited data

How the results depend on the processing

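Of 50 alternative values of the EC to TB ratio, 48 moved by less than 1 SD between cells on the log2 scale, a wide limit for genes this sparse. The exceptions were TGFBR2, whose log2 ratio was 4.81 from means and 7.40 from medians, and ENG, whose log2 ratio of 3.26 ranged from 2.55 to 9.69 when each cell was left out, the highest without TB 46. The other ranges were -0.12 to 0.06 for TGFBR1, 4.65 to 5.53 for TGFBR2, 1.52 to 2.05 for TGFBR3, 8.40 to 9.65 for ACVRL1, 0.55 to 1.06 for TGFB1 and -9.76 to -8.76 for TGFB2. No ratio could be formed where a group was at 0, which was the case for ACVRL1 in EQ-Vary, EQ-75% and the medians, for TGFB2 in EQ-75% and the medians, and for the median of ENG in TB. Counts of all genes past the 2-fold limit stayed within 1.5 times. Of 60 list counts, 3 moved further: the other receptors higher in TB were 2 with no filter on low values, those higher in EC were 1 in EQ-75%, and the inhibitors higher in TB were 1 with median-of-ratios size factors. Of 70 detection shares, 23 left their binomial interval, 11 of them with a limit of 5 counts. With no replicate block, so without pairing of cells, the TGFBR1 difference of EQ-75% from EQ was 0.47 in EC in place of 0.34, and 0 of 28 such values moved by more than 1 SD. The same held for 28 values with a pseudocount of 5 CPM and 24 over cells with a count in both experiments. Depth limits ENG, ACVRL1, TGFB1 and the TB level of TGFBR2, where many cells hold 1 or 2 counts.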
